A study of Mus musculus with 6 samples.

Results

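Pomc-high neurons of the embryonic mouse hypothalamus were compared between embryonic day E11.5 and E13.5, gene by gene. Pomc encodes proopiomelanocortin, the precursor of the melanocortins and of beta-endorphin. A cell was taken as a Pomc-high neuron when it held at least 10 Pomc UMIs per 10000 UMIs and had a UMI of at least 3 of 6 neuronal genes (Elavl3, Mapt, Snap25, Stmn2, Syt1 and Tubb3). A UMI (unique molecular identifier) marks 1 captured RNA molecule. The rule found 485 cells among 1498 at E11.5 and 456 cells among 1796 at E13.5, which makes 941 of 3294 cells in both libraries and of 13953 cells in the whole series. Pomc and the 6 neuronal genes chose the cells, so that their levels are given as a description only.

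The cells came from C57BL/6 mice carrying the transgene Pomc-DsRed, which marks POMC cells with a red fluorescent protein, and both parents of the embryos were POMCDsRed/+. The 2 groups were untreated E11.5 and E13.5 hypothalami, each pooled from at least 6 animals, digested with papain for the same time and sorted for red fluorescence. Each age was 1 library of the same 10x Genomics chemistry (version 2), with no replicate, so that age, pool and library cannot be told apart and no p-value is given. The copy number of the transgene in the sorted embryos is not given in the sources used here, and the authors kept only cells with a Pomc UMI.

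POMC neurons of the arcuate nucleus restrain food intake through the melanocortins that they release. They arise in the ventral wall of the developing hypothalamus under transcription factors that include Isl1, Nkx2-1 and Prdm12, start to express Pomc soon after they leave the cell cycle, and then extend axons, form synapses and acquire receptors for hormones. Part of the early Pomc-expressing cells is known to give rise to neurons of other types.

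Pomc-high neurons held 8745787 UMIs in all and a median of 17617 per cell (5704 to 55618) at E11.5, and 7818515 UMIs and a median of 17166.5 (3970 to 29850) at E13.5, so that the medians were close and the ranges differed. The median cell held 4375 and 4310.5 genes. Mitochondrial UMIs were 2.72% and 3.44% of the total and ribosomal protein UMIs 16.1% and 14.5%. The libraries differed in sex-linked RNA: cells with Xist and without the Y-linked genes were 63.3% of the Pomc-high neurons at E11.5 and 34.2% at E13.5, and cells with Y-linked RNA alone were 22.1% and 41.5%. A single barcode occurred in both libraries, and not among the Pomc-high neurons.

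Pomc-high neurons were 35.2% of 1376 neurons at E11.5 (exact binomial 95% interval 32.7% to 37.8%) and 26.8% of 1699 at E13.5 (24.7% to 29.0%). Intervals here and below cover counting error only. Both shares are of neurons with at least 1 Pomc UMI, since the authors kept no others. In both libraries the Pomc level per neuron had a low and a high peak, and the limit lay on the rise of the high one. Of the neurons below the limit, 576 (64.65%) at E11.5 and 890 (71.6%) at E13.5 held exactly 1 Pomc UMI. The level of such a neuron is set by its depth alone, and the median depths below the limit were 16700 and 11872 UMIs. The lowest Pomc-high neurons were at 10.1 (E11.5) and 10.1 (E13.5) Pomc UMIs per 10000, and the highest neurons below the limit at 9.99 and 9.97. From 8 to 10 there were 37 and 40 neurons, and from 10 to 12 there were 37 and 28. The median Pomc-high neuron held 26.3 Pomc UMIs per 10000 at each age, and the highest 133 and 217.6. None of the cells that reached the Pomc limit failed the neuronal rule.

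**Figure D1:**
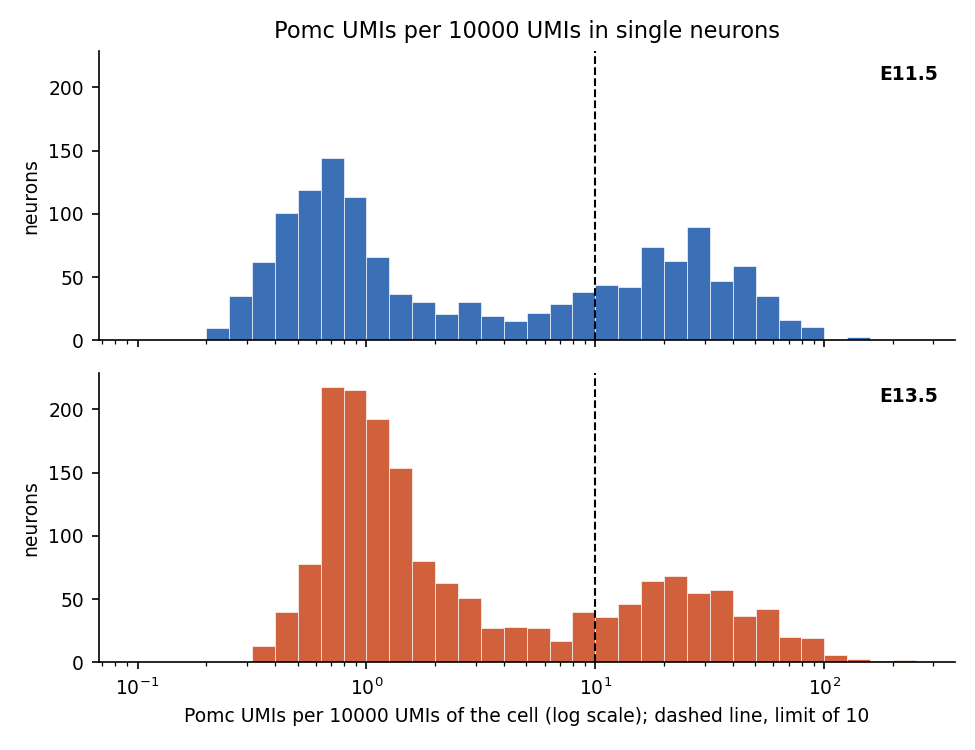
Pomc UMIs per 10000 UMIs (x axis, log scale) of single neurons at E11.5 (1376 neurons, blue) and E13.5 (1699 neurons, orange), with the number of neurons on the y axis. The dashed line is the limit of 10 that separates the 485 and 456 Pomc-high neurons, on its right, from the Pomc-low neurons.

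Below, the level of a gene is its normalized count, meaning its UMIs summed over the Pomc-high neurons of a library, divided by all UMIs of these cells and multiplied by 10000. On this scale Pomc, on chromosome 12 from 3954951 to 3960642 (GRCm38, plus strand), was at 32.7 at E11.5 and 35.3 at E13.5. The neuronal genes Tubb3, Stmn2, Elavl3 and Snap25 differed by less than 1.1-fold between the ages. Mapt was at 8.91 and 12.3, and Syt1, the calcium sensor of synaptic vesicles, at 2.17 and 1.08. Values of the neurons of the same libraries under the Pomc limit (Pomc-low neurons, 891 and 1243 cells) and of the cells with under 3 neuronal genes (122 and 97 cells) are given beside those of the Pomc-high neurons for part of the genes. They come from the same 2 libraries.

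The stretch of 250 bases before the start of transcription is shown for Pomc, which chose the cells, and for 3 of the genes that differed most between the ages: Lmo3 and Fam131c, higher at E13.5, and Crabp1, lower. Lmo3 and Crabp1 were the first leading genes each way with 1 RefSeq start. Fam131c was shown because its window held CAGCTG. Of the leading genes with 1 start, 1 of 8 higher and 1 of 11 lower genes held CAGCTG. The sequences are those of RefSeq on GRCm38.p6, 5′ to 3′ on the strand of the gene. Capitals mark short motifs found on either strand: CAGCTG, an E-box read by proneural basic helix-loop-helix factors, TAATTA, the core of many homeodomain sites, CAAGTG, a core bound by NKX2-1 that is also an E-box of the form CANNTG, and AAGGTCA, a core site of NR5A1 and related nuclear receptors.
Pomc, chr12:3954695-3954944, plus strand: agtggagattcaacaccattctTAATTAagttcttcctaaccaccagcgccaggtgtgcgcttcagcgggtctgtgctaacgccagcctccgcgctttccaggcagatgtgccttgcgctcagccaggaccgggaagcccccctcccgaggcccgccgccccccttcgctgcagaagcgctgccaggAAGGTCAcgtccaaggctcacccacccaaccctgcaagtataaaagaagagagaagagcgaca
Lmo3, chr6:138581969-138582218, minus strand: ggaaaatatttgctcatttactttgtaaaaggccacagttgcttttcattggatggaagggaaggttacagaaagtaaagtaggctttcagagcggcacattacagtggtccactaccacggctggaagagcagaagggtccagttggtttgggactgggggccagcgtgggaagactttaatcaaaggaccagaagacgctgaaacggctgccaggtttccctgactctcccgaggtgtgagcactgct
Fam131c, chr4:141367942-141368191, plus strand: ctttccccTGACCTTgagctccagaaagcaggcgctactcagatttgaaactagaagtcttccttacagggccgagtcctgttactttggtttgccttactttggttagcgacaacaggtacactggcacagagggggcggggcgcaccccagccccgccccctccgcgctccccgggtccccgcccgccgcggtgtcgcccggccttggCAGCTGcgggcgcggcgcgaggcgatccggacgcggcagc
Crabp1, chr9:54764498-54764747, plus strand: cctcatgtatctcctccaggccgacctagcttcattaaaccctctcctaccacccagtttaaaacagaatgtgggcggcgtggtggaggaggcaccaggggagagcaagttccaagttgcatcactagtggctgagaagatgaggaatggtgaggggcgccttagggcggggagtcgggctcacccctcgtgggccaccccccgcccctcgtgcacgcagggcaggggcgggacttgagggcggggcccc

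The Pomc window held TAATTA 228 bases and AAGGTCA 63 bases before the start. The Fam131c window held AAGGTCA, read on the other strand as TGACCTT, 242 bases and CAGCTG 40 bases before the start, and the windows of Lmo3 and Crabp1 held none of these letters. RefSeq windows of the table matched 190 of the genes at least 2-fold higher at E13.5, 94 of those at least 2-fold lower and 6121 of all genes compared. CAGCTG stood in 19.5% of the 282 windows of the higher genes, 17.1% of the 123 windows of the lower genes and 11.7% of the 8010 windows of all genes compared, and in 13% of all 32851 windows of the table. TAATTA stood in 4.26%, 1.63% and 2.22% of these windows and in 4.84% of the table, CAAGTG in 10.99%, 9.76%, 8.98% and 11.6%, and AAGGTCA in 2.84%, 0.813%, 2.60% and 4.08%. A match of letters is a description of the window, not a binding site.

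The first question was which genes differ between the ages in neurons of like Pomc level. Of 27998 genes listed, 7851 had a mean level of at least 0.1 over both ages and were compared. At E13.5, 256 genes were at least 2-fold higher (3.26% of the genes compared) and 128 were at least 2-fold lower (1.63%), among them Syt1, which helped to choose the cells. The median log2 ratio of all genes compared was -0.01, with a 5th percentile of -0.62 and a 95th of 0.82. Differences of at least 4-fold were seen for 51 higher and 18 lower genes. Among cells with Xist RNA alone the counts were 338 higher and 220 lower, with 307 and 156 cells, and among cells with Y-linked RNA alone 309 and 179, with 107 and 189 cells. Of the 256 higher genes, 235 and 195 were past 2-fold in these subsets, and of the 128 lower genes 113 and 88. The part of the sex-linked difference in single genes was not tested further. A gene near 0 at one age passed the limit on the mean only if it was high at the other, so that counts within gene lists describe the genes compared and not all members. Each count within a list below is to be read beside the shares of 3.26% higher and 1.63% lower among all genes compared.

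**Figure D2:**
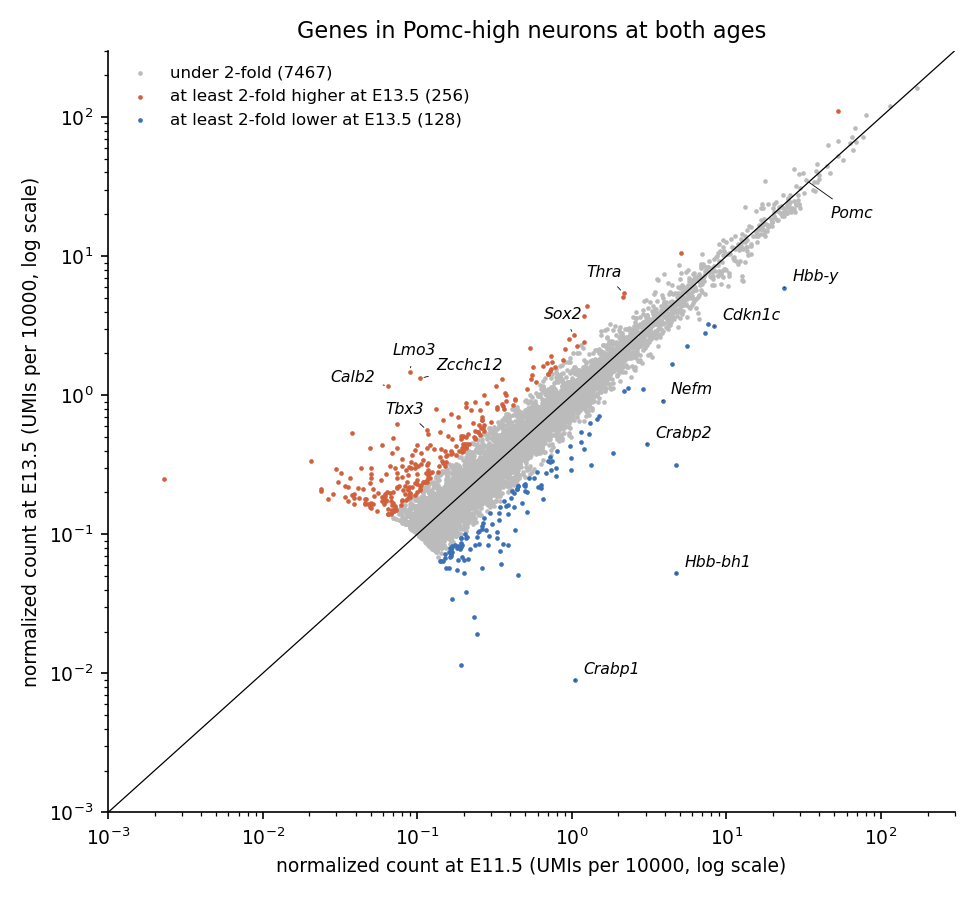
Normalized counts (UMIs per 10000, log scales) of the 7851 genes compared in Pomc-high neurons, E11.5 on the x axis and E13.5 on the y axis, 1 point per gene. Orange points are the 256 genes at least 2-fold higher at E13.5, blue points the 128 at least 2-fold lower, and most genes lie along the line of equal levels. The cut along the lower left edge is the limit of 0.1 on the mean level.

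Among the genes that reached a level of 0.5, the ones with the largest ratios at E13.5 were Calb2 and Lmo3. Calb2 (chromosome 8, 110137502 to 110168210, minus strand) encodes calretinin, a calcium-binding protein of neurons. It was at 0.0652 at E11.5 and 1.16 at E13.5, which is 17.8-fold higher (95% counting interval 13.6 to 23.7). Cells with a Calb2 UMI were 32 of 485 (6.60%) and 183 of 456 (40.1%), against 3.28% and 2.06% of the cells with under 3 neuronal genes, whose median depths were 18834.5 and 12629 UMIs. With each cell thinned to 5000 UMIs the shares of Pomc-high neurons were 3.51% and 24.2%. In Pomc-low neurons Calb2 was at 0.0815 and 0.495.

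Lmo3 (chromosome 6, 138362918 to 138581968, minus strand) encodes a LIM-only protein that binds transcription factors. Its level was 0.0892 and 1.47, or 16.5-fold higher at E13.5 (13.1 to 21.1), and cells with a UMI were 12.6% and 57.0%, or 4.74% and 34.6% when thinned. In cells with under 3 neuronal genes the share was 3.28% and 10.3%. Pomc-low neurons held Lmo3 at 0.744 and 1.81, a ratio of 2.43. Of the 183 Calb2 cells at E13.5, 117 (63.9%) also had an Lmo3 UMI, and of the other Pomc-high neurons 52.4% did. This pair was chosen after its values were seen.

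Fxyd7, a regulator of the sodium pump, was 14.2-fold higher (0.0377 and 0.536) and was at 0.356 and 0.516 in Pomc-low neurons. Zcchc12, a zinc finger co-activator of BMP signalling, was 12.7-fold higher (0.104 and 1.32). Zcchc12 had a UMI in 12.99% of the Pomc-high neurons at E11.5 and 70.2% at E13.5 (4.33% and 43.6% when thinned), and in 7.38% and 21.6% of the cells with under 3 neuronal genes. In Pomc-low neurons its level was higher at both ages, at 0.37 and 3, a ratio of 8.10. Rgs4, which speeds the shut-off of G proteins, was 8.30-fold higher in Pomc-high neurons (6.39 to 10.9), at 0.0743 and 0.617. In Pomc-low neurons Rgs4 was at 0.140 and 0.137. The side-by-side values differed most for Alcam, a cell adhesion molecule of axons, which was 4.40-fold higher in Pomc-high neurons (0.166 and 0.729) and 6.56-fold lower in Pomc-low neurons (1.28 and 0.195). The difference between these directions was not tested.

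The other leading higher genes lay between 3.82-fold and 6.08-fold. They were Fam131c, the T-box factor Tbx3, the zinc finger factor Bcl11b, the calmodulin-dependent kinase Pnck, Psd, which activates an ARF GTPase, the secreted C1qtnf4, the neuronal elongation factor Eef1a2, the RNA-binding Ralyl and Tmem130. C1qtnf4 was at 0.537 at E11.5 and 2.19 at E13.5, with UMIs in 49.7% and 82.7% of the cells, against 11.48% and 30.9% of the cells with under 3 neuronal genes. Of these 9, Tbx3 was the one under 2-fold in Pomc-low neurons, at 0.0886 and 0.125.

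Genes lower at E13.5 began with the retinoic acid binding protein Crabp1 (chromosome 9, 54764748 to 54773110, plus strand), which holds retinoic acid in the cytoplasm. Crabp1 was at 1.05 at E11.5 and 0.00895 at E13.5, or 117.2-fold lower (56.7 to 292.4), with 918 and 7 UMIs. A UMI was found in 228 of 485 cells and in 7 of 456, and the tenth of the cells richest in it held 76.4% of its UMIs at E11.5. At E11.5 the level of Crabp1 was 2.42 in Pomc-high neurons with 10 to 20 Pomc UMIs per 10000, 0.471 in those with 20 to 40 and 0.409 in those with 40 or more, so that the cells nearest the Pomc limit had the highest level. At E13.5 the same ranges were at 0.00815, 0.00950 and 0.00906. Crabp1 was far higher in Pomc-low neurons of E11.5, at 25.9, and was 0.0966 there at E13.5. Cells with under 3 neuronal genes were at 2.84 and 0.338, with a UMI in 89.3% and 33.0% of them. Crabp1 was thus lower at E13.5 in all 3 sets of cells. The part of RNA from other cells in the Crabp1 UMIs of Pomc-high neurons was not tested. Crabp2, of the same family, was at 3.06 and 0.446 in Pomc-high neurons, or 6.85-fold lower (6.13 to 7.68), and its UMIs were found in 88.9% and 28.9% of the cells. The share in cells with under 3 neuronal genes was 24.6% and 38.1%, and their level of Crabp2 was 0.277 and 1.27.

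The embryonic hemoglobin genes Hbb-bh1 (4.73 and 0.0524), Hba-x (4.70 and 0.317) and Hbb-y (23.6 and 5.95) and the adult Hbb-bt (1.32 and 0.317) were also among the leading lower genes. Their levels were nearly the same in the other cells of each library: Hbb-y was at 23.5 and 6.65 in Pomc-low neurons and at 23.7 and 6.33 in cells with under 3 neuronal genes. Hemoglobin took 0.419% of the UMIs of Pomc-high neurons at E11.5 and 0.0971% at E13.5. The part of free RNA in these values was not tested.

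Gamt, which makes creatine, was 4.80-fold lower (1.84 and 0.382), and Nefm, the medium neurofilament chain, 4.23-fold lower (3.87 and 0.915). In Pomc-low neurons Nefm was at 16.0 and 1.25. Itpk1, an inositol phosphate kinase, Tom1l1, the helix-loop-helix inhibitor Id3, the GDNF receptor Gfra1, the potassium channel Kcnh2, the kinase Plk3 and the zinc transporter Tmem163 were 2.77-fold to 3.60-fold lower. Kcnh2 was at 1.20 and 0.412, with UMIs in 79.8% and 48.7% of the cells, against 8.20% and 15.46% of the cells with under 3 neuronal genes. Tmem163 was at 0.628 and 0.226 in Pomc-high neurons, against 1.04 and 1.48 in Pomc-low neurons.

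**Figure D3:**
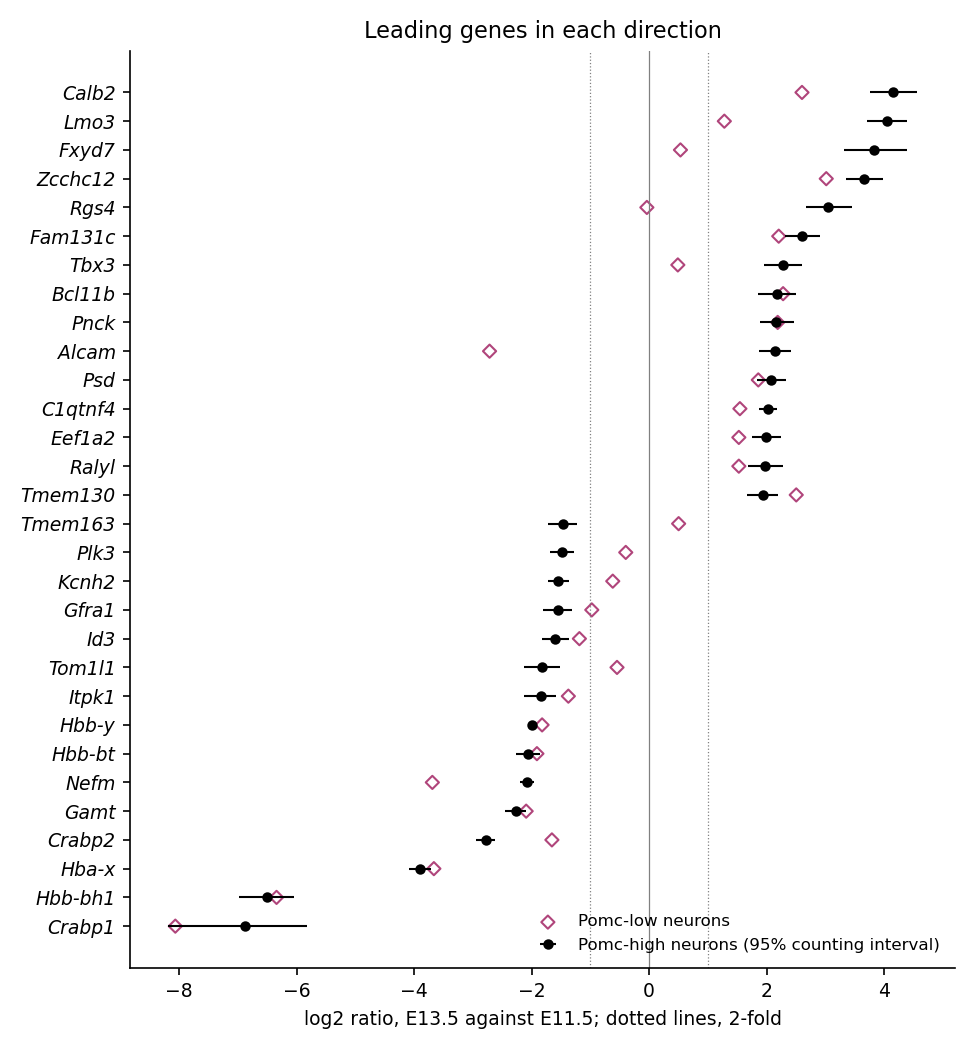
Log2 ratio of E13.5 against E11.5 (x axis) of the 15 leading genes in each direction, in Pomc-high neurons (black points with 95% counting intervals) and in Pomc-low neurons (open diamonds, no interval drawn). Dotted lines mark 2-fold, and the diamonds of Alcam, Fxyd7, Rgs4, Lmo3, Tmem163 and Tbx3 stand farthest away from the points.

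Hypothalamic regulators were examined next, since they set and keep the identity of these neurons. Of 33 genes of the list, 19 were compared, 3 were at least 2-fold higher at E13.5, 3 were at least 2-fold lower and 13 were neither, with a median log2 ratio of -0.09. In these cells, chosen by the same Pomc limit at both ages, the factors that are known to specify POMC neurons differed by at most 1.33-fold. Isl1, a LIM-homeodomain activator of Pomc, was at 6.18 at E11.5 and 5.98 at E13.5, with UMIs in 99.6% and 98.2% of the cells, against 11.48% and 8.25% of the cells with under 3 neuronal genes. Nkx2-1, the homeodomain factor of the ventral hypothalamus, was at 6.29 and 7.03, and Prdm12, a zinc finger factor needed for Pomc expression, at 1.07 and 1.42. The ratios of these 3 genes were 0.968 (0.930 to 1.01), 1.12 (1.08 to 1.16) and 1.33 (1.22 to 1.45). Pomc-low neurons, set apart by the same Pomc limit, held Isl1 at 4.04 and 1.82 and Nkx2-1 at 1.30 and 2.62.

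The eye and forebrain homeodomain factors Six3 (4.03 and 4.05) and Six6 (3.44 and 3.76) and the nuclear receptor Nr5a1, a factor of the ventromedial hypothalamus (1.29 and 1.21), also differed by less than 1.1-fold. Sox14, a factor of GABAergic lineages elsewhere in the brain, was at 2.38 and 2.03, and Sox3 at 1.41 and 0.993. Foxp1 was at 1.00 and 0.702. Cells with an Nr5a1 UMI were 86.4% and 74.6%, against 0% and 1.03% of the cells with under 3 neuronal genes, where 0 of 122 cells at E11.5 allows a share of up to 2.46% (3 of 122 cells).

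Tbx3 (chromosome 5, 119670669 to 119684724, plus strand), a T-box factor of mature arcuate POMC neurons, had the largest ratio of the list. It was at 0.116 at E11.5 and 0.560 at E13.5, which is 4.85-fold higher (3.90 to 6.08), with UMIs in 59 of 485 and 148 of 456 cells (12.2% and 32.5%, or 5.57% and 21.4% when thinned) and in 0.820% and 0% of the cells with under 3 neuronal genes. At E13.5 Tbx3 was at 0.330 in Pomc-high neurons with 10 to 20 Pomc UMIs per 10000, 0.386 in those with 20 to 40 and 1.065 in those with 40 or more (146, 180 and 130 cells), whereas at E11.5 it was at 0.105, 0.0952 and 0.158. Pomc-high neurons of E15.5 and E17.5, chosen by the same rule, held Tbx3 at 2.199 and 2.84. The level at E13.5 was thus above that of E11.5 in each of the 3 Pomc ranges.

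Sox2, a factor of neural progenitors that some neurons keep, was 2.64-fold higher at E13.5 (1.03 and 2.70, interval 2.44 to 2.85) with UMIs in 76.1% and 90.6% of the cells, or 39.0% and 67.8% when thinned. It was found in 2.46% and 6.19% of the cells with under 3 neuronal genes. Foxp2, a forkhead repressor, was 2.52-fold higher (0.263 and 0.664, and a log2 ratio of 0.95 among cells with Xist RNA alone), and Sox1 was at 0.655 and 1.15. Both Foxp2 and Sox2 were also over 3-fold higher at E13.5 in Pomc-low neurons.

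The 3 regulators past 2-fold in the other direction were Nr2f1, Lhx2 and Shh. Nr2f1, an orphan nuclear receptor that patterns the forebrain, was at 0.162 and 0.0691, Lhx2, a LIM-homeodomain factor of forebrain progenitors, at 0.532 and 0.254, and Shh, the secreted ventral signal of the hypothalamus, at 0.719 and 0.358. Their folds were 2.35 (1.71 to 3.28), 2.09 (1.77 to 2.48) and 2.01 (1.74 to 2.32), so that each counting interval reached below 2. Among cells with Y-linked RNA alone their log2 ratios were -0.22, -0.75 and -0.53. Just short of 2-fold were Nr0b1, the repressor that pairs with Nr5a1 (0.986 and 0.501), Fezf1 (0.239 and 0.123) and Nr2f2 (0.653 and 0.340).

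Of the other regulators, under the limit of 0.1 on the mean level, Rax, Nkx2-2, Nkx2-4, Vax1, Pou3f2, Pou3f3, Foxd1, Fezf2 and Tbx2 had UMIs at E11.5 at levels of 0.00343 to 0.0903, and Nkx2-4, the highest of them, was at 0.104 at E13.5. Hmx2, Hmx3, Gsx1 and Bsx had no UMI in Pomc-high neurons at either age, where 3 UMIs would be a level of 0.00343 at E11.5 and 0.00384 at E13.5.

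**Figure D4:**
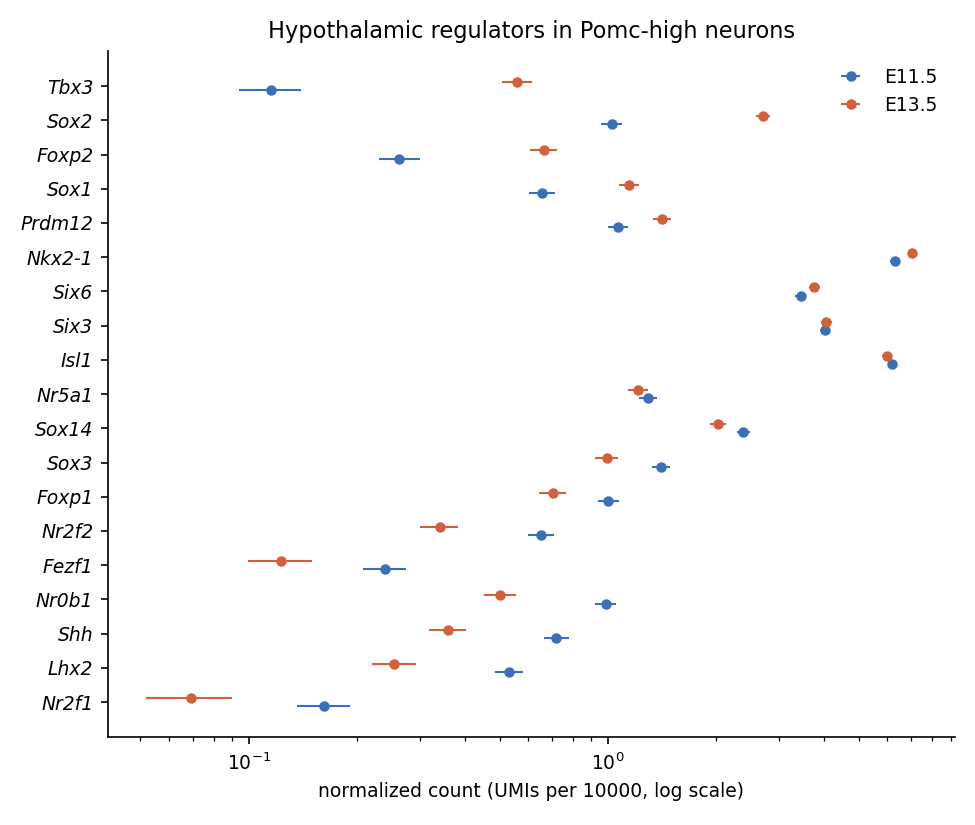
Normalized counts (UMIs per 10000, log scale) of the 19 hypothalamic regulators compared, in Pomc-high neurons of E11.5 (blue) and E13.5 (orange), ordered by ratio, with exact Poisson 95% intervals. Tbx3, Sox2 and Foxp2 at the top are over 2-fold higher at E13.5, while Isl1, Nkx2-1, Six3 and Six6 are close at both ages.

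Most markers of other groups of Pomc-expressing neurons had UMIs in Pomc-high neurons, while 4 of 19 had none at E11.5 and 3 had none at E13.5. Of 19 such genes 5 were compared, and 3 were at least 2-fold higher, Nr4a2 and Pou4f1 among them, beside 3.26% of all genes compared. Nr4a2 and Pou4f1 were under 0.1 at E11.5, so that they passed the limit on the mean level through E13.5. Nr4a2, an orphan nuclear receptor of dopamine neurons, was at 0.0435 and 0.298, and the POU factor Pou4f1 at 0.0503 and 0.168. In Pomc-low neurons of E13.5 these 2 genes were at 3.93 and 2.95, and Nr4a2 was at 0.204 in cells with under 3 neuronal genes. The part of RNA from other cells in these UMIs was not tested. Summed over its 19 genes the list was at 0.829 and 1.52 in Pomc-high neurons and at 15.4 and 16.5 in Pomc-low neurons. Ebf1, a helix-loop-helix factor of early neurons, was at 0.396 and 0.279 in Pomc-high neurons and at 9.69 and 3.35 in Pomc-low ones.

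Genes of neurogenesis differed in both directions. Of 28 proneural and Notch pathway genes 8 were compared. Myt1l, a zinc finger factor that represses non-neuronal genes, was 3.09-fold higher at E13.5 (0.284 and 0.877), and Insm1, a zinc finger factor of newborn neurons, 2.92-fold higher (0.0766 and 0.224). St18 was 2.65-fold lower (0.336 and 0.127) and the helix-loop-helix factor Neurod1 2.398-fold lower (0.261 and 0.109), with a log2 ratio of -0.70 among cells with Y-linked RNA alone. Nhlh2, a helix-loop-helix factor of POMC neurons, was at 2.96 and 2.202, and Hes6 at 1.18 and 1.11. Myt1, a relative of Myt1l and St18, was at 0.367 and 0.352.

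The 19 cell cycle genes, summed, were at 1.46 at E11.5 and 0.787 at E13.5, against 28.3 and 14.7 in cells with under 3 neuronal genes. Of the 3 compared (Pcna, Mcm7 and Tyms) none was past 2-fold. UMIs of at least 2 of the 6 genes Mki67, Top2a, Cdk1, Ccnb1, Cenpf and Ube2c were found in 19 Pomc-high neurons at E11.5 and in 2 at E13.5. Cdkn1c, an imprinted inhibitor of cyclin-dependent kinases that acts as neurons leave the cell cycle, was 2.67-fold lower at E13.5 (8.34 and 3.13, interval 2.55 to 2.79). It was 1.49 at E15.5 and 0.624 at E17.5. Cdkn2d and Cdkn1b differed by less than 1.1-fold.

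Early temporal factors, which mark the first-born neurons or young progenitors in many parts of the nervous system, were lower at E13.5 for 4 of the 7 genes compared of 12, with a median log2 ratio of -1.01 beside -0.01 for all genes. Lin28b, which blocks the maturation of let-7, was 2.92-fold lower (0.250 and 0.0857), Arid3a 2.57-fold lower (0.516 and 0.201), and the mRNA-binding Igf2bp2 and Igf2bp1 2.07-fold and 2.02-fold lower. Among cells with Y-linked RNA alone Igf2bp2 and Igf2bp1 were at log2 ratios of -0.34 and -0.63, short of 2-fold. Igf2bp3 was at 1.11 and 0.656, and Onecut2 at 0.739 and 0.374. Hmga1, a chromatin protein of proliferating cells, went the other way, being 2.10-fold higher (0.120 and 0.252). The median of the same genes in Pomc-low neurons was -1.19. None of the 5 late temporal factors compared was past 2-fold, and their median log2 ratio was 0.37, with Zfhx4 at 0.288 and 0.499, Zfhx3 at 0.933 and 1.21 and Pou2f2 at 3.44 and 2.90.

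Of 14 genes of prohormone processing and secretory granules 12 were compared, 2 were at least 2-fold higher and none lower. The median log2 ratio was -0.02 (1.03 in Pomc-low neurons). Scg2, a granin of dense-core granules, was 5.59-fold higher (0.0743 and 0.416, interval 4.27 to 7.42), and Pcsk2, the convertase that cuts POMC products to smaller peptides, 3.56-fold higher (0.0560 and 0.200, interval 2.57 to 5.02). UMIs of Pcsk2 were in 8.25% and 20.8% of the cells, against 2.46% and 7.22% of the cells with under 3 neuronal genes, and Pomc-high neurons of E15.5 and E17.5 were at 0.571 and 1.23. Pcsk1n, the inhibitor of the other convertase, was at 13.2 and 22.6 and Cpe, the carboxypeptidase, at 4.92 and 5.34. Chga, Chgb and Scg3 were within 1.3-fold. Pomc-low neurons held more of both genes past 2-fold at each age, with Scg2 at 0.206 and 0.811 and Pcsk2 at 0.37 and 0.953.

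Of 31 neuropeptide precursors 3 were compared. Apart from Pomc these were Sst, encoding somatostatin (0.168 and 0.159), and Vgf, which was 2.12-fold lower (0.176 and 0.0831) and at a log2 ratio of -0.49 in thinned cells. Among those under the limit, Cartpt, the precursor of CART peptides, had 57 UMIs at E11.5 and 4 UMIs at E13.5, Pdyn, that of the dynorphins, 5 and 122, and Npy, made by neighbouring neurons that promote feeding, 7 and 57. Agrp had 6 and 5 UMIs.

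Transmitter genes were sparse. Slc17a6, the vesicular glutamate transporter VGLUT2, was 2.42-fold higher at E13.5 (0.178 and 0.432, interval 1.999 to 2.95), with UMIs in 22.5% and 47.1% of the cells, or 7.84% and 18.9% when thinned, against 3.28% and 5.16% of the cells with under 3 neuronal genes. In thinned cells its log2 ratio was 0.88. The GABA-synthesizing enzyme Gad2, under the limit, had 99 UMIs in 68 cells at E11.5 and 33 UMIs in 29 cells at E13.5, Gad1 had 11 and 10 UMIs, and the vesicular GABA transporter Slc32a1 16 and 15. Of the 29 Gad2 cells at E13.5, 13 also had an Slc17a6 UMI.

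Of 27 genes of synaptic vesicles and the active zone 26 were compared, with a median log2 ratio of 0.68 (0.55 in Pomc-low neurons), and 6 were at least 2-fold higher and none lower. Syt1, lower at E13.5 as given above, was not in this list. Leading them were the postsynaptic adhesion molecule Nlgn3, 6.00-fold higher (0.0503 and 0.302), its presynaptic partner Nrxn3, 3.17-fold higher (0.0492 and 0.156), and the vesicle protein Syn2, 2.97-fold higher (0.0663 and 0.197). Nlgn1 (0.0697 and 0.168), the active zone scaffold Rims1 (0.0892 and 0.200) and the vesicle protein Syp (0.704 and 1.42) followed at 2.402-fold, 2.24-fold and 2.02-fold. Nrxn3 was at a log2 ratio of 0.82 in neurons with 10 to 30 Pomc UMIs per 10000, Nlgn1 at 0.41 and Syp at 0.58 among cells with Y-linked RNA alone, and Rims1 at 0.98 in thinned cells, each short of 2-fold. Rab3a was at 3.48 and 5.57, Syt4 at 2.93 and 4.72 and Vamp2 at 1.93 and 2.73. Syn2 was at 0.145 and 0.0953 in Pomc-low neurons.

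Of 20 axon growth and cytoskeleton genes, all compared, 1 was at least 2-fold higher and 2 lower, with a median log2 ratio of 0.07. Tubb2a, a beta-tubulin, was 2.08-fold higher (5.07 and 10.6, and a log2 ratio of 0.43 among cells with Y-linked RNA alone). Its near copy Tubb2b was at 65.0 and 71.9, and the separate values of these copies are uncertain. Beside Nefm, the light neurofilament chain Nefl was 2.33-fold lower (7.60 and 3.26) and Nefh was at 0.322 and 0.174, whereas the related Ina was at 15.7 and 15.53. Nefl and Nefm are neighbours on chromosome 14. In Pomc-low neurons Nefl was at 23.0 and 3.14. Gap43, of growth cones, was at 15.4 and 21.1, and Dcx, of migrating neurons, at 3.005 and 3.64.

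Of 33 genes of axon guidance and adhesion 17 were compared, with a median log2 ratio of 0.23 (0.26 in Pomc-low neurons), and 3 were at least 2-fold higher. They were the netrin receptor Unc5d (3.42-fold, 0.0743 and 0.254), the semaphorin receptor Plxnc1 (2.33-fold) and the ephrin receptor Epha5 (2.14-fold). Epha5 was at a log2 ratio of 0.89 in neurons with 10 to 30 Pomc UMIs per 10000. Ncam1 (7.22 and 8.44), Robo2 (1.505 and 2.16) and L1cam (1.97 and 2.04) were not past it.

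Of 34 genes of voltage-gated and potassium channels 18 were compared, with a median log2 ratio of 0.30 (0.44 in Pomc-low neurons). Of these 18 genes 4 were at least 2-fold higher, beside 3.26% of all genes compared, and none lower. They were Cacna1e, the R-type calcium channel (7.75-fold, 0.0309 and 0.239), Kcnq3, of the M current (4.28-fold, 0.0389 and 0.166), and the A-type potassium channels Kcnd2 (3.12-fold) and Kcnd3 (2.43-fold). The sodium channel Scn9a was at 0.728 and 0.680, and Kcnc1 at 0.862 and 0.753. Kcnh2, lower at E13.5 as given above, was not in this list.

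Of 29 receptor subunits for glutamate, GABA and glycine 11 were compared, with a median log2 ratio of 0.88 (1.11 in Pomc-low neurons). Grin2b, an NMDA receptor subunit, was 6.92-fold higher (0.0366 and 0.253, interval 4.75 to 10.4), and the GABA-A subunits Gabra5 (0.0972 and 0.407), Gabra2 (0.0686 and 0.146) and Gabra3 (0.0960 and 0.193) were 4.18-fold, 2.12-fold and 2.01-fold higher. Among cells with Xist RNA alone Gabra2 and Gabra3 were at log2 ratios of 0.91 and 0.76, short of 2-fold. Gria2, an AMPA receptor subunit, was at 0.438 and 0.806. Gria2 was at 1.95 and 4.56 in Pomc-high neurons of E15.5 and E17.5.

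Of 37 receptors for hormones and peptides 7 were compared, and the thyroid hormone receptor Thra was the one past 2-fold. It was at 2.16 and 5.41 (2.50-fold, interval 2.37 to 2.65), with UMIs in 93.8% and 98.7% of the cells, against 69.7% and 89.7% of the cells with under 3 neuronal genes, and Pomc-low neurons were at 1.69 and 4.65. Gabbr1 (1.78 and 2.36), the cannabinoid receptor Cnr1 (0.850 and 1.32) and Igf1r (0.574 and 0.709) were not past it. The leptin receptor Lepr, through which leptin acts on adult POMC neurons, had 8 UMIs at E11.5 and 2 UMIs at E13.5, and the melanocortin receptor Mc3r 3 and 1.

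**Figure D5:**
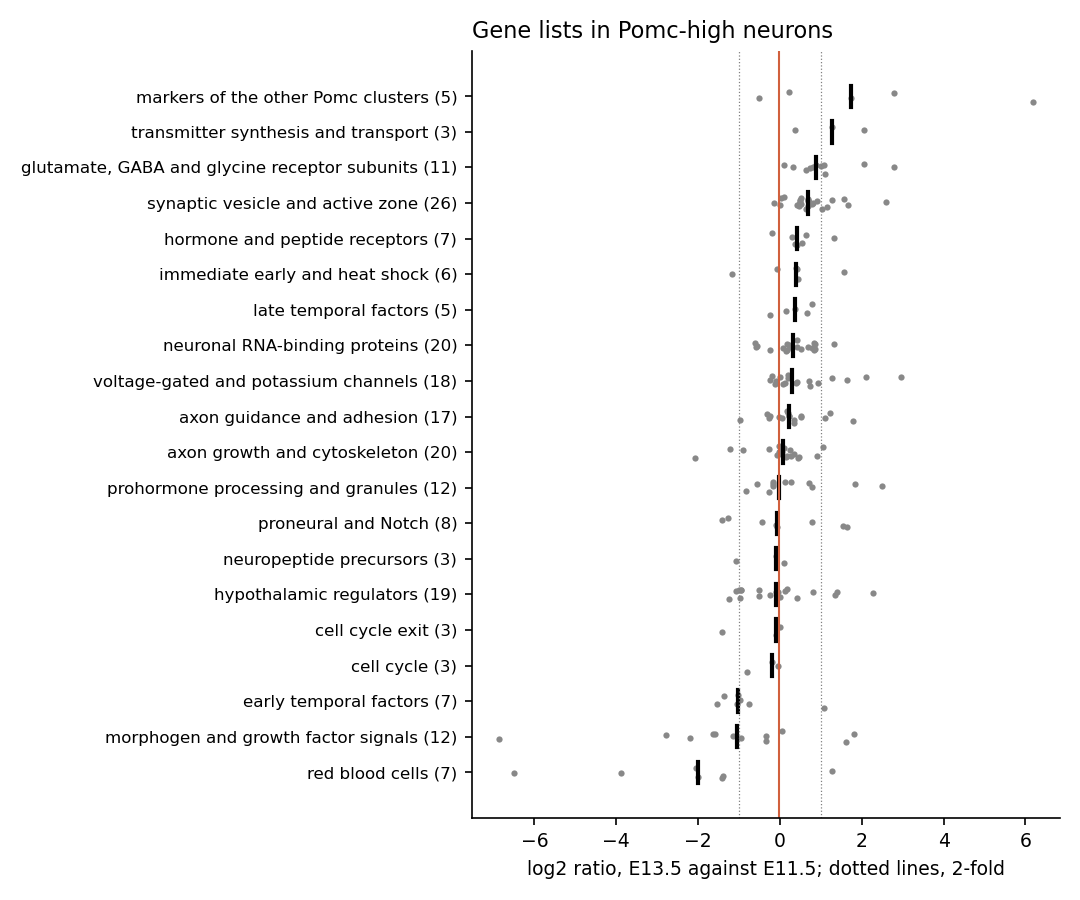
Log2 ratio of E13.5 against E11.5 (x axis) in Pomc-high neurons for the genes of each list with at least 3 genes compared (number in brackets). Grey points are genes, black bars list medians, the orange line the median of all 7851 genes (-0.01), and dotted lines mark 2-fold. Medians of the early temporal, morphogen and red blood cell lists lie below -1.

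Of 36 morphogen and growth factor genes 12 were compared, 6 were at least 2-fold lower and 2 higher, and the median log2 ratio was -1.04. Besides Crabp1, Crabp2 and Id3, the last at a log2 ratio of -0.87 among cells with Y-linked RNA alone, the lower ones were the ligand Bmp7 (4.58-fold, 0.345 and 0.0755), the Wnt effector Lef1 (3.09-fold, 0.201 and 0.0652) and the helix-loop-helix inhibitor Id2 (0.746 and 0.339, and a log2 ratio of -0.22 among cells with Y-linked RNA alone). In Pomc-low neurons Bmp7 was at 0.504 and 0.783 and Id2 at 1.90 and 0.285. Of the higher genes, Tcf7l2, a Wnt effector of the same family as Lef1, was 3.08-fold higher (1.20 and 3.70). Pomc-high neurons of E15.5 and E17.5 were at 1.02 and 0.452 for Tcf7l2, so that of the 4 embryonic ages E13.5 had its highest level.

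All 20 neuronal RNA-binding proteins were compared, with a median log2 ratio of 0.32, and the splicing factor Rbfox1 was 2.51-fold higher (0.556 and 1.39, interval 2.25 to 2.80). Pomc-low neurons held it at 0.546 and 0.568. Elavl4 (6.21 and 6.83), Celf2 (3.46 and 4.06) and Rbfox2 (2.92 and 3.26) were not past 2-fold. Of 12 immediate early and heat shock genes, which dissociation can raise, 6 were compared. Fos was 2.96-fold higher (0.0743 and 0.220), Ier2 2.24-fold lower (0.406 and 0.182), and Jund was at 3.86 and 5.26. Cells with under 3 neuronal genes were at 0.112 and 2.50 for Fos.

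Some abundant genes outside the lists were named after their values were seen. Nnat, the imprinted gene of neuronatin, had a level of 52.3 at E11.5 and 110.0 at E13.5 in Pomc-high neurons, a log2 ratio of 1.07, and of 33.0 and 87.3 in Pomc-low neurons. Ldha, encoding the muscle-type chain of lactate dehydrogenase, was 2.58-fold lower (7.24 and 2.80) and was the one of 14 glycolysis genes compared to pass 2-fold. The median log2 ratio of those genes, a list also set after values were seen, was -0.44, with Pkm at 12.7 and 7.18, Aldoa at 10.2 and 6.08 and Gapdh at 27.8 and 20.8. The 12 mitochondrially encoded genes compared had a median of 0.35, the 71 nuclear genes of the respiratory chain 0.12 and the 102 ribosomal protein genes -0.12, and none of these was past 2-fold.

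Apart from Vim and the red blood cell genes, markers of other cell types were low in Pomc-high neurons. The 9 microglia genes summed to 0.0423 at E11.5 and 0.0153 at E13.5, the 4 endothelial genes to 0.00686 and 0.0230, the 4 genes of the oligodendrocyte lineage to 0.0240 and 0.0115, and the 8 pituitary genes, which would mark pituitary cells that also express Pomc, to 0.00572 and 0.00384. None of these genes reached the limit for comparison, and P2ry12, Olig1, Olig2, Pitx1, Pou1f1 and Gh were at 0 at both ages. The 8 mesenchymal genes summed to 0.326 and 0.645, against 19.3 and 137.2 in cells with under 3 neuronal genes. Col3a1 was 2.79-fold higher at E13.5 (0.0858 and 0.239), or at a log2 ratio of 0.88 with a Pomc limit of 20, and at 6.36 and 51.8 in those cells. The 9 genes of radial glia and astrocytes summed to 12.9 and 6.88, of which Vim, an intermediate filament that young neurons also express, made 12.7 and 6.74. The 8 red blood cell genes summed to 42.0 and 9.73, against 42.2 and 10.2 in cells with under 3 neuronal genes. Of these 8 genes 7 were compared, 6 were lower and Hbb-bs was 2.43-fold higher (0.113 and 0.275). Hba-a1 and Hba-a2 are near-identical copies, so that their separate values are uncertain. Xist was at 6.62 and 3.52, and of the 4 Y-linked genes Ddx3y was at 0.0720 and 0.155 and Eif2s3y at 0.134 and 0.257.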

How the data were processed

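The authors counted UMIs with Cell Ranger (2.2.0 and 3.0.0 in the submitters' notes, with Seurat 3.0 and mm10; which version made which table is not given in the sources used here, so the ages may differ in it), removed cells by UMIs, genes, mitochondrial and hemoglobin share, with UMI limits that differed between the ages, and deposited raw counts per gene and cell. Members, gene lists and comparisons were chosen with earlier results of these data known. Counts were summed over the Pomc-high neurons of each library and scaled to 10000 UMIs. Genes with a mean level of at least 0.1 were compared, and a sum of 0 was set to 3 counts. Intervals are 95%, exact Poisson for levels, exact conditional binomial for ratios and Clopper-Pearson for shares, while a share of 0 was bounded at 3 cells. With 1 library per age no test was made. The calculation was tested on simulated data. The authors' limits were also meant to remove possible doublets. No further doublets were removed here, and an alternative left out the highest 5% of Scrublet scores. Thinning to 5000 UMIs left out 2 cells at E13.5. Named genes were the 15 with the largest ratio each way at a level of at least 0.5 (without names of the kinds Gm-number and Rik), in each of 28 lists up to 5 genes past 2-fold each way and up to 3 abundant others, and all regulators. Other genes were named after their values were seen, and some genes that the rule names are not reported here. Gene positions are from GENCODE M21 (GRCm38). Python 3.11.15, scipy 1.17.1, scanpy 1.11.5 and, for TMM factors, edgeR 4.0.16 were used.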

Additional observations from a re-analysis of the deposited data

Results flagged for a closer look

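Alcam went in opposite directions in the 2 sets of neurons of the same libraries. Its log2 ratio of E13.5 against E11.5 was 2.14 in Pomc-high neurons and -2.71 in Pomc-low neurons. The levels were 0.166 and 0.729 in Pomc-high neurons, 1.28 and 0.195 in Pomc-low neurons, and 1.25 and 0.722 in cells with under 3 neuronal genes. The difference was not tested, since each age was 1 library.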

How the results depend on the processing

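The number of genes at least 2-fold higher at E13.5 (256) stayed within 1.5 times under 15 of 18 alternatives, and the number of genes at least 2-fold lower at E13.5 (128) under 14. The exceptions were 1189 and 750 with no limit on low genes, 50 and 34 with a limit of 0.5, and 655 and 459 for a fold of 1.5, each by construction of the alternative. Among cells with Xist RNA alone, an alternative chosen after seeing the data, as was that of Y-linked RNA alone, 220 genes were lower, and the cause was not tested. The median log2 ratio of all genes moved by less than 0.1 under each alternative run. The share of Pomc-high neurons was 41.7% at E11.5 and 31.8% at E13.5 with a Pomc limit of 5 per 10000, 23.5% and 18.2% with a limit of 20, and 37.9% at E11.5 with 5 of 6 neuronal genes. Of 87 named genes past 2-fold, none changed direction and 65 stayed past 2-fold under all 17 alternatives that kept the fold. The others included Id2, Id3, Shh, Lhx2, Nr2f1, Foxp2, Neurod1, Igf2bp1, Igf2bp2, Vgf, Slc17a6, Syp, Rims1, Nrxn3, Nlgn1, Tubb2a, Epha5, Gabra2, Gabra3, Col3a1 and Ddx3y. No paired analysis was possible because each age was 1 library. Depth limits genes below a level of 0.1, and the spread between animals is not known.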

Other observations

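Besides Alcam, 3 genes at least 2-fold higher at E13.5 in Pomc-high neurons were at least 2-fold lower in Pomc-low neurons of the same libraries. Ecel1, an endopeptidase of neurons, was at log2 ratios of 2.05 and -1.26, Fgf13, which binds sodium channels, at 1.02 and -1.23, and 9530059O14Rik at 1.14 and -1.41. These differences were not tested. With Alcam these genes made 4 of the 256 higher genes, while 1.87% of all genes compared were at least 2-fold lower in Pomc-low neurons. Of the 256 higher genes, 141 (55.1%) were also at least 2-fold higher in Pomc-low neurons, against 3.59% of all genes compared. Of the 128 lower genes, 75 (58.6%) were also at least 2-fold lower there, against 1.87%.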
